A study of Mus musculus with 5480 samples.

Results

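The lysyl oxidase family consists of 5 genes, Lox, Loxl1, Loxl2, Loxl3 and Loxl4. All 5 were found by symbol among the 18072 genes of a read count table. The table covers single cells from the distal lung of mice before and after birth. Lysyl oxidases are secreted enzymes that hold copper and oxidise lysine side chains of collagen and elastin, which then join into the covalent cross-links that give fibres their strength. Lox and Loxl1 carry a propeptide that is removed outside the cell, for Lox by proteinases of the Bmp1 type, whereas Loxl2, Loxl3 and Loxl4 carry scavenger receptor cysteine-rich domains. Mice without Lox die around birth with weak vessel and airway walls, and mice without Loxl1 fail to renew elastic fibres. In the lung, elastic fibres are laid down by mesenchymal cells while alveoli form.

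The table held 5480 mesenchymal cells, which the authors had sorted by flow cytometry and assigned to 16 subtypes. By the cell names, 5409 came from the mesenchymal sort, 69 from a sort named CD31 and 2 from a sort named CD45. In normal air there were 4 groups: embryonic day 18.5 (E18.5) and the postnatal days 1 (P1), 7 (P7) and 21 (P21). The fifth group was kept in hyperoxia, which is air enriched in oxygen, and taken at P7. Each of the 5 groups was 1 female and 1 male mouse of a strain and genotype that the labels do not name, and each mouse gave 311 to 633 cells. Litters are not named either, so p-values measure the spread between these mice, with sex as a term of the model. The oxygen level and the days of exposure are not given in the sources used here.

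Reads summed to 294154721 to 671766116 per mouse, and the median cell had 774305 reads. Levels are given in CPM, which are counts scaled to the same total in every library, summed over the cells of 1 mouse and subtype, for subtypes with at least 10 cells of that mouse, which made 64 libraries. The check of the label mesenchymal used summed levels of fixed marker lists: mesenchymal markers summed to 709 to 63816 CPM, with no marker of the list at 0 in any library. Endothelial markers summed to 0 to 138 CPM, epithelial markers to 0.0769 to 1082 CPM, immune markers to 0 to 261 CPM and erythroid markers to 0 to 23.3 CPM. The sum of 709 CPM was that of the striated muscle cells of the female at P21. Where genes are compared with each other, CPM was divided by exon length in kb, which ran from 3.297 kb for Loxl1 to 5.405 kb for Loxl2. Exons of other genes overlap 0.628% of the exon length of Lox, 5.70% of Loxl2 and 11.6% of Loxl3, the last with Htra2. Strand use in counting was not stated, so Loxl3 and Htra2 reads could not be told apart there, and Loxl3 levels are uncertain to that extent. Htra2 itself had a median of 30.7 CPM over the 64 libraries.

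Around birth the family, summed over all cells of a mouse, changed its leading member while its total stayed in the same range. The 5 genes summed to 188 ± 22.8 CPM per kb at E18.5 and 194 ± 14.6 CPM per kb at P1 (mean ± SD, n = 2 mice, as for all such values). Lox made up 71.5% ± 4.00 of that sum at E18.5 and 18.3% ± 1.89 at P1. Loxl1 made up 22.6% ± 3.30 at E18.5 and 74.3% ± 1.67 at P1. The order of the 2 genes was therefore turned round between those ages, and it did not turn back. Lox stayed at 15.1% ± 0.259 at P7 and 17.9% ± 3.31 at P21, and Loxl1 at 64.8% ± 4.71 and 72.3% ± 5.64. Loxl2 and Loxl3 together stayed below Loxl1 at every age in this sum over cells, and Loxl4 made up at most 0.614% of the family in the mean of any group. Single subtypes could differ from this sum. In early adventitial fibroblasts the total was 425 ± 17.1 CPM per kb at E18.5 and 293 ± 20.3 CPM per kb at P1. In pericytes Loxl3 led at both ages, with 63.4% and 55.5%.

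The make-up of the family varied between subtypes. Their names come from the authors' clusters of these same cells, so the differences between subtypes are described and not tested. At P7, Loxl1 made up 82.4% of the family in early alveolar fibroblasts, which lie in the walls of the forming air spaces, and Lox 13.3%. Early adventitial fibroblasts, which lie in the cuffs around airways and vessels, had the highest family sum at that age among fibroblasts, 303 ± 50.4 CPM per kb, with 64.5% Loxl1 and 30.2% Lox. Myofibroblasts, the contractile cells of the forming alveolar septa, summed to 109 CPM per kb, and Loxl2 made up 25.8% ± 11.2 there against 56.1% for Loxl1. Early airway smooth muscle summed to 207 CPM per kb with 16.9% Loxl2 and 16.4% Loxl3, and vascular smooth muscle to 279 ± 56.8 CPM per kb with 71.8% Loxl1 and 19.0% Lox. Pericytes, the cells that wrap capillaries, had the lowest sum of these subtypes, 36.2 CPM per kb, and Loxl3 made up 66.0% of it. Striated muscle cells of the P21 female (16 cells) had 4.68 CPM per kb. At P7 Loxl1 led in 5 of these 6 subtypes and Loxl3 in pericytes.

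**Figure D1:**
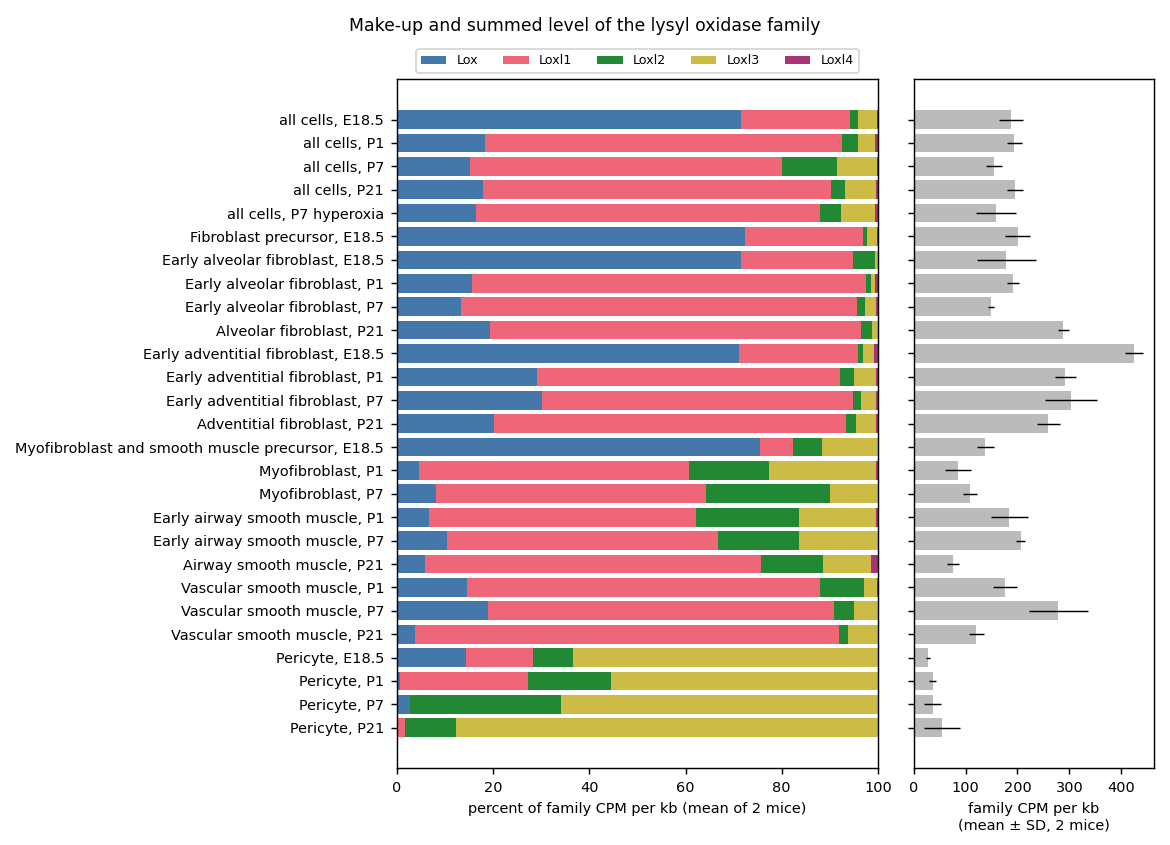
Share of each of the 5 genes in the family's summed CPM per kb of exon, in percent, for the subtypes and ages shown, as the mean of 2 mice. Grey bars at the right give the summed CPM per kb (mean ± SD of 2 mice). Hyperoxia is shown for all cells only, and proliferating cells, striated muscle and male hyperoxic fibroblasts are left out. Lox takes most of the bar in fibroblast precursors and in all cells at E18.5 (71.5% in all cells), and Loxl1 in fibroblasts from P1 on.

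Before birth, Lox was high in all fibroblast-like subtypes. Adventitial fibroblasts at E18.5 had 1499 CPM in the female and 1385 CPM in the male, the highest Lox level of any library. Fibroblast precursors, the largest subtype at that age, had 778 and 610 CPM (female first, as in all such pairs), early alveolar fibroblasts 690.5 and 509.5 CPM, and precursors of myofibroblasts and smooth muscle 556 and 442 CPM. The means of the last 3 subtypes lay within the larger SD of the neighbour in the order, so their order is not settled. Proliferating fibroblasts had 462 and 327 CPM, and pericytes 8.31 and 31.1 CPM. These muscle precursors were thus close to fibroblasts in Lox but not in Loxl1, for which they had 33.4 and 28.3 CPM against 159 and 163 CPM in fibroblast precursors. Lox made up 75.5% ± 3.13 of the family in those muscle precursors and Loxl1 6.78%.

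**Figure D2:**
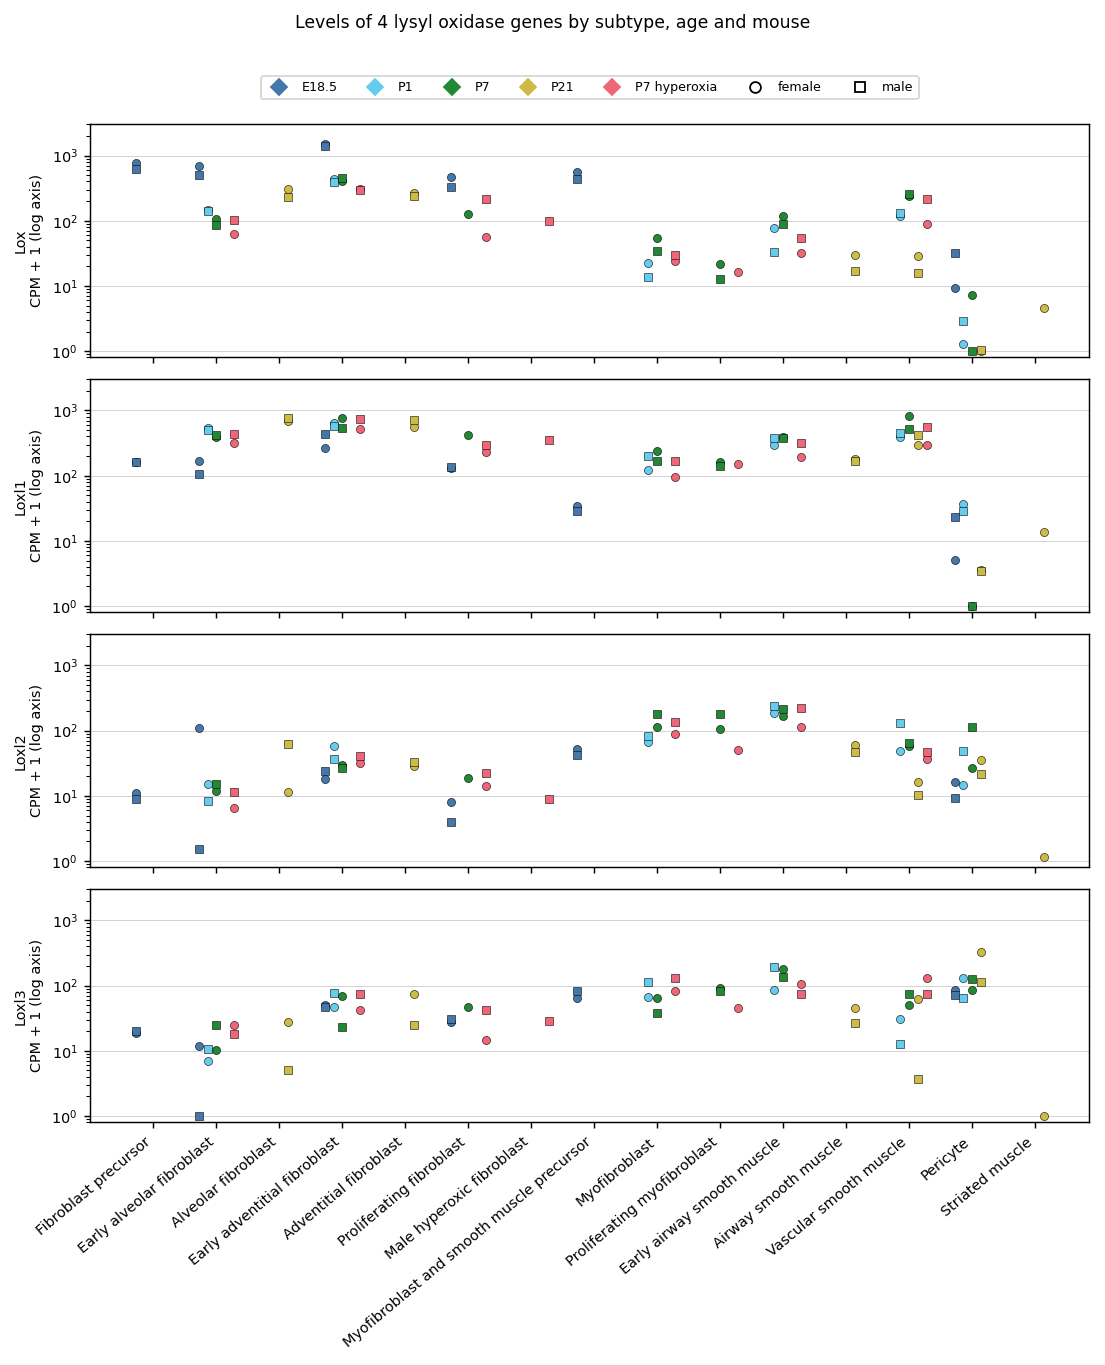
Levels of Lox, Loxl1, Loxl2 and Loxl3 for each subtype as CPM + 1 on a log axis, with 1 point per mouse, the group marked by colour and the sex by shape. Lox is highest in adventitial fibroblasts at E18.5 (1499 and 1385 CPM) and near 0 in pericytes at P21 (0.0196 and 0.0327 CPM, each under the 3 reads taken as a floor).

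Across birth, Lox fell and Loxl1 rose in the sum over all cells. Lox was at 725 and 564 CPM at E18.5 and at 191 and 149 CPM at P1, and Loxl1 was at 136 and 141 CPM and then at 492 and 456 CPM. For neither gene did the mice of the 2 ages overlap. Lox fell by 1.85 on the log2 scale (SE 0.283, adjusted p = 0.0130) and Loxl1 rose by 1.85 (SE 0.276, adjusted p = 0.0118; edgeR quasi-likelihood test, Benjamini-Hochberg over all genes). Loxl2 had a log2 change of 1.07 that did not pass (18.8 and 16.3 CPM, then 39.9 and 30.2 CPM, unadjusted p = 0.00848, adjusted p = 0.191 by edgeR). Of the 5 members 2 passed, where 1.23% of 17283 genes were called, and the median change of all genes was -0.01. The E18.5 and P1 mice of each sex were mainly sequenced in 1 run. Within those runs Lox was at 740.03 and 564 CPM at E18.5 and at 186 and 149 CPM at P1, and Loxl1 at 137 and 141 CPM and then at 489 and 456 CPM. Such a sum moves with the mix of cells as well as with the RNA per cell, and the fibroblast precursors of E18.5 (425 and 335 cells) number 3 and 1 at P1. Without either E18.5 or either P1 mouse the calls were lost, with adjusted p of 0.0820 to 0.159 for Lox and 0.0591 to 0.174 for Loxl1. This sum over all cells was added after the data had been seen.

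Within subtypes that carry a name at both ages, the direction was the same in both sexes. In adventitial fibroblasts Lox went from 1499 and 1385 CPM to 429 and 389 CPM, and the groups did not overlap. It fell by 1.84 on the log2 scale (SE 0.280, adjusted p = 0.0427 by edgeR), the only member called of 5 in that class, where 0.17% of genes were called. Without any 1 of the 10 mice that call was lost (adjusted p of 0.0533 to 0.345). Loxl1 in these cells went from 261 and 439 CPM to 642 and 571 CPM, a log2 change of 0.82 (unadjusted p = 0.0420, adjusted p = 0.528 by edgeR), which did not pass. A rise of Loxl1 was therefore not shown for adventitial fibroblasts.

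In alveolar fibroblasts, Lox went from 690.5 and 509.5 CPM at E18.5 to 146 and 138 CPM at P1, and Loxl1 from 169 and 104 CPM to 539 and 495 CPM. Lox fell by 2.10 on the log2 scale (SE 0.430, adjusted p = 0.0352) and Loxl1 rose by 1.91 (SE 0.359, adjusted p = 0.0312; edgeR). That is 2 of 5 members, where 6.16% of genes were called, 956 of them up and 10 down, with a median change of all genes of 1.35. Over the 1826 genes of at least 100 CPM the median was -0.07. The E18.5 libraries of this class hold 14 and 24 cells, and in the male 79.3% of the Loxl1 reads came from 1 cell. The female one had epithelial markers at 1082 CPM, 1001 CPM of it Sftpc, with 5 of 9 markers at 0, and immune markers at 261 CPM, with 4 of 7 at 0; their part in the result was not tested. The calls were lost without either P1, P7, P21 or hyperoxia mouse (Lox adjusted p of 0.0578 to 0.259) and with only the 4 mice compared (0.572). Fibroblast precursors, with far more cells, had Lox and Loxl1 levels near those of these small libraries (778 and 610 CPM, 159 and 163 CPM). Precursors of myofibroblasts and smooth muscle number 7 and 7 cells at P1, too few for a level. Beside their 556 and 442 CPM of Lox and 33.4 and 28.3 CPM of Loxl1, myofibroblasts at P1 had 21.2 and 12.9 CPM of Lox and 119 and 202 CPM of Loxl1. Early airway smooth muscle at P1 had 76.4 and 31.7 CPM of Lox and 292 and 383 CPM of Loxl1, so Lox led before birth and Loxl1 after it in contractile cells too. Pericytes, the third class with both ages, had 0 of 4 members called, where 0.042% of genes were called.

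**Figure D3:**
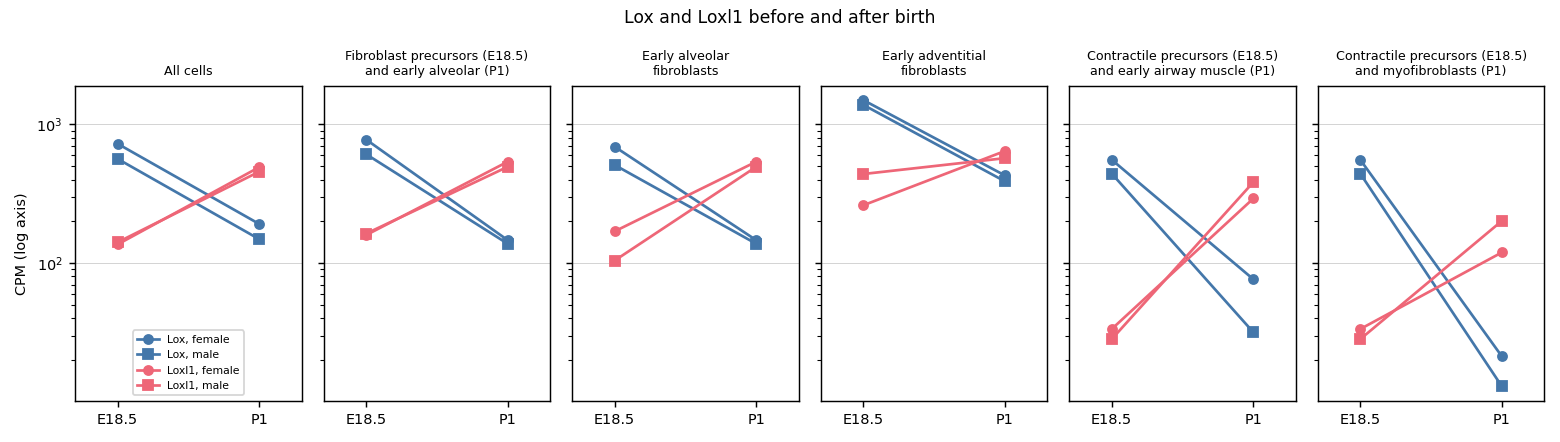
Lox and Loxl1 in CPM on a log axis at E18.5 and P1, with 1 point per mouse and a line joining the 2 mice of a sex, for all cells, for 2 subtypes named at both ages, and for 3 pairs of a precursor subtype at E18.5 with a subtype of another name at P1. Between E18.5 and P1, Lox in all cells drops from 725 and 564 CPM to 191 and 149 CPM while Loxl1 climbs from 136 and 141 CPM to 492 and 456 CPM.

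Single cells were then read for both genes at once. Each cell was thinned to 100000 reads, and 168 cells with fewer reads were left out. Of fibroblast precursors at E18.5, 65.5% and 64.7% held reads of both Lox and Loxl1, 31.4% and 28.1% of Lox alone, and 0.480% and 2.40% of Loxl1 alone. Of early alveolar fibroblasts at P1, 56.1% and 51.8% held both, 3.51% and 4.16% Lox alone, and 28.1% and 31.6% Loxl1 alone. Cells with only 1 of the 2 genes thus held mostly Lox in the first subtype and mostly Loxl1 in the second, and cells with both genes were the largest class in each. If the 2 genes had been detected independently, 50.2% and 46.7% of the P1 cells would have held both. Lox in the median cell was 709 and 575 CPM in precursors and 29.5 and 14.5 CPM in early alveolar fibroblasts at P1, where median Loxl1 was 405 and 365 CPM. The Lox level of the summed P1 libraries, 146 and 138 CPM, lay above that of the median cell. In precursors of myofibroblasts and smooth muscle, 65.3% and 67.5% of cells held Lox alone. Of P7 myofibroblasts, 38.8% and 36.0% held Loxl1 alone, and 38.2% and 46.1% held neither gene. Of adventitial fibroblasts, 76.9% and 82.8% held both genes at E18.5 and 73.5% and 63.1% at P21. Independent detection would have given 78.1% and 83.5% at E18.5 and 73.3% and 58.5% at P21.

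**Figure D4:**
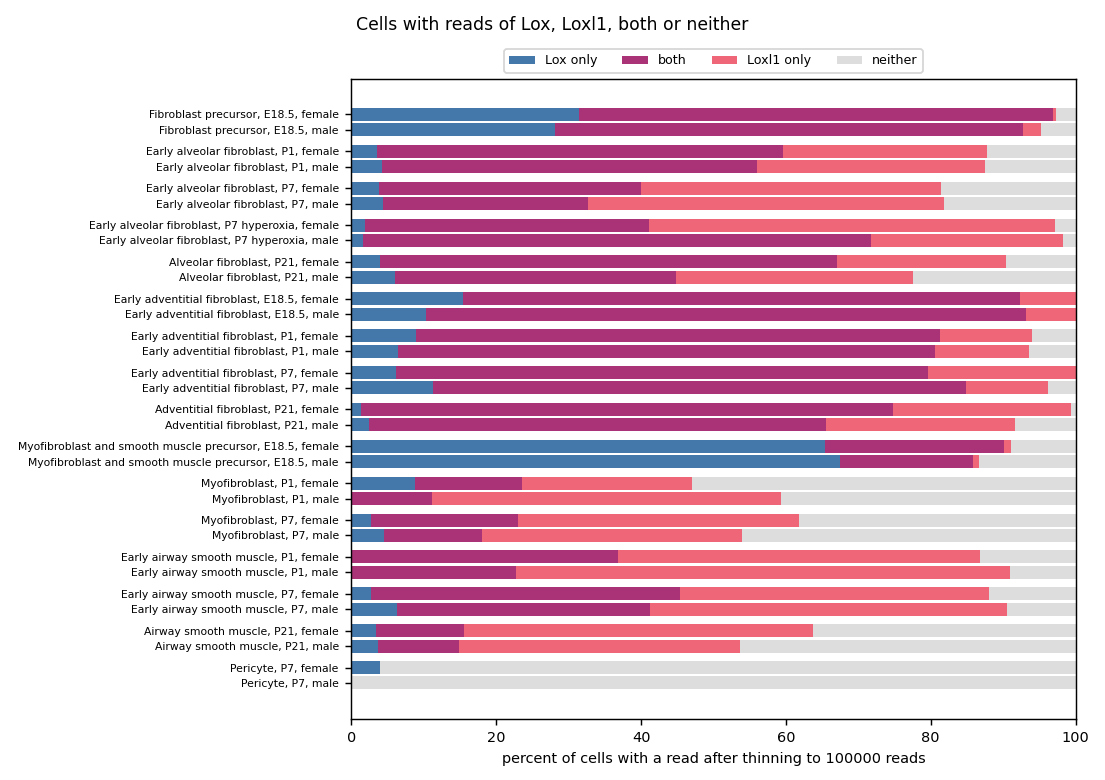
Percent of cells of the subtypes shown, by mouse, with reads of both Lox and Loxl1, of 1 of them or of neither, after thinning to 100000 reads. Cells with Lox alone take 31.4% and 28.1% of fibroblast precursors at E18.5, and cells with Loxl1 alone 28.1% and 31.6% of early alveolar fibroblasts at P1.

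From P1 to P7 no change of Lox or Loxl1 passed the test in alveolar fibroblasts. In early alveolar fibroblasts Lox was at 104 and 84.3 CPM at P7 and Loxl1 at 389.8 and 422 CPM, and 0 of 5 members were called from P1 to P7, as were 0% of all genes in this class. By edgeR 370 genes had an unadjusted p under 0.05 there, and DESeq2 called 216 genes, none of them a member. In the sum over all cells, where 0 of 5 members and 0.22% of genes were called, Lox went from 191 and 149 CPM to 118 and 105 CPM, without overlap, and its log2 change of -0.67 did not pass (adjusted p = 0.406 by edgeR). Loxl3 went from 29.0 and 33.6 CPM to 65.7 and 52.0 CPM, with a log2 change of 0.81 that did not pass either (adjusted p = 0.412). From P7 to P21 in all cells, Lox had a log2 change of 0.80 (199.6 and 137 CPM at P21, adjusted p = 0.0998) and Loxl1 of 0.70 (465 and 464 CPM at P21, adjusted p = 0.130 by edgeR), and neither passed. Over the same step alveolar fibroblasts went from 104 and 84.3 CPM to 302 and 227 CPM of Lox and from 389.8 and 422 CPM to 692 and 761 CPM of Loxl1, with early and later names joined. Both genes were higher at P21 in both sexes and the groups did not overlap, but neither log2 change passed: 1.79 for Lox (SE 0.426, adjusted p = 0.419) and 1.15 for Loxl1 (SE 0.351, adjusted p = 0.555; edgeR). That was 0 of 5 members, where 0.0702% of genes were called and DESeq2 called 2 members. Elastin itself (Eln), their main elastic substrate, rose by 3.21 on the log2 scale in these cells (SE 0.366, adjusted p = 0.0415 by edgeR). The alternatives were recomputed for the members only, so the Eln call was not checked with mice left out. Whether Eln changed differently from Lox or Loxl1 was not tested.

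In adventitial fibroblasts and both kinds of smooth muscle, Lox was lower at P21 than at P7 in both sexes, without a call. Adventitial Lox went from 409 and 455 CPM to 256 and 241 CPM, a log2 change of -0.63 that did not pass (adjusted p = 0.483), with 0 of 5 members called and 0.124% of genes called. In vascular smooth muscle Lox went from 238 and 255 CPM to 27.4 and 15.0 CPM. Its log2 change was -3.37 (SE 0.778, unadjusted p = 0.00121), and with adjusted p = 0.274 by edgeR it did not pass either: 0 of 4 members were called, where 0.0886% of genes were, and DESeq2 called 1. Loxl1 in vascular smooth muscle was 818 and 519 CPM at P7 and 294 and 414 CPM at P21. Airway smooth muscle had Lox at 119 and 87.2 CPM at P7 and 29.0 and 28.3 CPM at P21 with both names joined (28.5 and 15.8 CPM in the later subtype alone), and Loxl1 at 391 and 377 CPM and then 185 and 182 CPM. Whether the change differed from that of alveolar fibroblasts was tested as an interaction, which called 0 of 5 members for adventitial fibroblasts, airway and vascular smooth muscle, where 0.0064%, 0.115% and 0.115% of genes were called. DESeq2 called 0, 1 and 3 members in those 3 tests. The difference from alveolar fibroblasts in Loxl1 was -0.99 in adventitial fibroblasts (unadjusted p = 0.0489, adjusted p = 1), -1.84 in airway smooth muscle (unadjusted p = 0.00159, adjusted p = 0.414) and -1.92 in vascular smooth muscle (unadjusted p = 0.00118, adjusted p = 0.259 by edgeR). For Lox it was -5.33 in vascular smooth muscle (adjusted p = 0.437), and for Loxl2 -3.29 in airway and -3.99 in vascular smooth muscle (adjusted p = 0.909 and 0.450), with the alveolar Loxl2 level at P21 mostly from 1 cell in the male. For Loxl4 in airway smooth muscle it was 10.06 (adjusted p = 0.946), fitted against libraries at or near 0 and no measure of size. From P1 to P7, the same test called 0 of 5 members for adventitial fibroblasts, myofibroblasts, airway and vascular smooth muscle, where 0%, 0.0319%, 0% and 0.0383% of genes were called. Loxl1 in vascular smooth muscle differed by 1.01 (unadjusted p = 0.0468, adjusted p = 0.797 by edgeR).

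Among subtypes at P7, Loxl2, which is known to cross-link collagen IV of basement membranes, was highest in airway smooth muscle and myofibroblasts. It was at 164 and 211 CPM in early airway smooth muscle, 114 and 182 CPM in myofibroblasts and 105 and 179 CPM in proliferating myofibroblasts. These 3 subtypes did not differ beyond the larger SD. Pericytes had 25.8 and 112 CPM, vascular smooth muscle 56.3 and 64.7 CPM, adventitial fibroblasts 29.0 and 26.1 CPM, and early alveolar fibroblasts 10.9 and 14.1 CPM. The step from the first 3 subtypes down to pericytes and from vascular smooth muscle down to both fibroblast subtypes exceeded the larger SD. The pericytes of the male, at 112 CPM, still lay above the proliferating myofibroblasts of the female, at 105 CPM. At E18.5 the precursors of myofibroblasts and smooth muscle had 50.7 and 41.0 CPM against 9.91 and 8.05 CPM in fibroblast precursors, so the 2 kinds of precursor were already apart in this gene.

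In the sum over all cells, Loxl2 was at 39.9 and 30.2 CPM at P1, 70.2 and 118 CPM at P7 and 25.6 and 35.7 CPM at P21, and P7 did not overlap either neighbour. It fell by 1.38 on the log2 scale from P7 to P21 (SE 0.330, adjusted p = 0.0283 by edgeR), 1 of 5 members called, where 9.97% of genes were called, and its log2 change of 1.32 from P1 to P7 did not pass (adjusted p = 0.142). Without the P21 female the change was -1.15 (adjusted p = 0.0904), and without the P7 male -0.99 (adjusted p = 0.263). The males of these 3 ages shared a run, in which Loxl2 was at 30.2, 119 and 35.8 CPM, and the females did not. The number of myofibroblasts moves with this sum: 39 and 32 cells at P1, 155 and 184 at P7, and 0 at P21 in both mice; its part in the result was not tested. Within myofibroblasts Loxl2 went from 67.1 and 82.3 CPM at P1 to 114 and 182 CPM at P7, without overlap, a log2 change of 0.90 that did not pass (adjusted p = 0.595); 0 of 5 members and 0% of genes were called. By unadjusted p, 1072 genes of that comparison were under 0.05, and DESeq2 called 693. Within airway smooth muscle Loxl2 went from 188 and 241 CPM at P1 to 164 and 211 CPM at P7, and to 61.0 and 43.2 CPM in that class at P21. Neither step was called: 0 of 5 members from P1 to P7, where 0% of genes were called, and 0 of 5 from P7 to P21, where 1.13% were. The log2 change of the later step was -1.44 (unadjusted p = 0.0114, adjusted p = 0.283 by edgeR). By unadjusted p, 709 genes were under 0.05 from P1 to P7 in airway smooth muscle, and DESeq2 called 403. In alveolar fibroblasts, 2 high Loxl2 values came from single cells: 93.0% of the reads behind 110 CPM in the E18.5 female, and 89.0% of those behind 61.0 CPM in the P21 male.

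Loxl3 was the leading member in pericytes. They had 84.1 and 70.4 CPM at E18.5, 128 and 63.2 CPM at P1, 84.5 and 125 CPM at P7, and 330.0 and 114 CPM at P21. At P21, 40.5% of the female reads came from 1 of 70 cells, and the mice spread over 222 ± 152 CPM. Loxl3 made up 63.4% of the pericyte family sum at E18.5, 55.5% at P1, 66.0% at P7 and 87.6% at P21, at each age more than any other member. Pericyte markers summed to 5341 to 8234 CPM in these libraries and to 1176 to 2785 CPM in vascular smooth muscle. The labels come from clusters of these same cells, so the markers are no independent check of the pericyte label. Airway smooth muscle had the highest Loxl3 at P7, 179 and 134 CPM, all in the early subtype, and 44.9 and 24.5 CPM at P21 with both names joined, a log2 change of -1.83 (unadjusted p = 0.0111, adjusted p = 0.280 by edgeR) that did not pass. Alveolar fibroblasts had the lowest mean at P7, 9.21 and 24.0 CPM, within the larger SD of adventitial fibroblasts (45.5 ± 33.0 CPM).

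Loxl1 had 0 reads in pericytes at P7. These cells had 4.12 and 22.2 CPM of Loxl1 at E18.5, 35.4 and 28.3 CPM at P1, 0 and 0 CPM at P7 (26 and 31 cells, where 3 reads would be 0.149 and 0.114 CPM) and 2.60 and 2.44 CPM at P21. All reads of each library came from 1 or 2 cells, so these levels rest on very few cells. Members called numbered 0 of 4 from P1 to P7, where 0% of genes were called, and 0 of 4 from P7 to P21, where 0.0504% were. From P1 to P7, 475 genes had an unadjusted p under 0.05, and DESeq2 called 471 genes, 1 of them a member. As an interaction against alveolar fibroblasts Loxl1 was called in both steps, where 0.198% of genes were called from P1 to P7 and 0.102% from P7 to P21, but the fitted values rest on those 0 reads and are no measure of size. The same holds for the fitted log2 changes within pericytes, -12.81 from P1 to P7 (adjusted p = 1) and 9.17 from P7 to P21 (adjusted p = 0.955 by edgeR). In the interaction from P7 to P21, Lox had -8.05 (adjusted p = 0.287), against 1 and 2 reads at P21, and Loxl2 -2.75 (adjusted p = 0.763).

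Vascular smooth muscle at P1 and P7 had 116 and 129.8 CPM and then 238 and 255 CPM of Lox, and 395 and 454 CPM and then 818 and 519 CPM of Loxl1. Both genes were higher at P7 in both sexes, but 0 of 4 members passed, as did 0% of genes. There, 463 genes had an unadjusted p under 0.05, and DESeq2 called 447. Adventitial fibroblasts likewise had 0 of 5 members and 0% of genes called from P1 to P7, with 856 genes under an unadjusted p of 0.05 and 333 called by DESeq2. Their Lox stayed close, at 429 and 389 CPM and then 409 and 455 CPM.

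Loxl4 had the lowest CPM per kb of the family in the sum over all cells. In CPM it was at 2.82 and 1.04 CPM at E18.5, 4.72 and 4.12 CPM at P1, 2.98 and 0.699 CPM at P7 and 5.41 and 1.26 CPM at P21. A library of 25.7 CPM, in adventitial fibroblasts of the E18.5 female, had all its reads from 1 of 26 cells, and the male had 0. In early alveolar fibroblasts Loxl4 was at 0 in both mice at E18.5 and at 4.64 and 5.28 CPM at P1, with a fitted log2 change of 12.53 against 0 reads (unadjusted p = 0.0248, adjusted p = 0.162 by edgeR) that is no measure of size. The filter on low counts removed it in pericytes and vascular smooth muscle, so 4 members were tested there.

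The hyperoxic mice were set against those of P7 in normal air. They were mainly sequenced in runs of their own, with 9 cells of the hyperoxic male in a run that also held 14 cells of the P7 male in normal air, so that run and hyperoxia cannot be told apart. Their cells also had more genes detected (medians of 4268 and 5545 against 2988 and 2963), and the part of this in the results was not tested. No member was called in any class: 0 of 5 in alveolar and adventitial fibroblasts, myofibroblasts and airway smooth muscle and 0 of 4 in vascular smooth muscle, where 0% of genes were called in each. By unadjusted p under 0.05, 420 genes stood out in alveolar fibroblasts, 1224 in adventitial fibroblasts, 847 in myofibroblasts, 418 in airway and 319 in vascular smooth muscle. DESeq2 called 240, 383, 377, 126 and 215 genes in that order, with 1 member, in myofibroblasts.

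Adventitial Lox was at 409 and 455 CPM in normal air and at 308 and 300.1 CPM in hyperoxia, without overlap. Its log2 change was -0.69 (SE 0.273, unadjusted p = 0.0299, adjusted p = 0.621 by edgeR). Early alveolar fibroblasts had 104 and 84.3 CPM of Lox in normal air and 60.8 and 100.01 CPM in hyperoxia, and 389.8 and 422 CPM and then 314 and 440.0 CPM of Loxl1, with overlapping mice. Myofibroblasts had 237 and 168 CPM of Loxl1 in normal air and 93.9 and 169.8 CPM in hyperoxia, and 63.4 and 37.5 CPM and then 82.0 and 129 CPM of Loxl3. The Loxl3 values of those 2 groups did not overlap and the Loxl1 values did. In airway smooth muscle Lox was 119 and 87.2 CPM in normal air and 30.6 and 53.7 CPM in hyperoxia, again without overlap. The test of whether the effect differed from that in alveolar fibroblasts called 0 of 5 members for adventitial fibroblasts, myofibroblasts and airway smooth muscle, where 0.106%, 0.0187% and 0.0187% of genes were called, and DESeq2 called 0 members in those tests too. The difference was 1.16 for Loxl2 in adventitial fibroblasts (unadjusted p = 0.0127, adjusted p = 0.673) and -0.92 for Lox in airway smooth muscle (unadjusted p = 0.0352, adjusted p = 0.648 by edgeR).

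In hyperoxia 39.2% and 70.1% of early alveolar fibroblasts held reads of both Lox and Loxl1 after thinning, and 36.2% and 28.3% in normal air. The mice did not overlap, but the 2 females lay close. Independent detection would have given 39.2% and 69.4% in hyperoxia and 31.0% and 25.3% in normal air. Cells with neither gene made up 2.87% and 1.66% in hyperoxia and 18.6% and 18.1% in normal air. The part of the higher number of genes detected in hyperoxia was not tested. A subtype that the authors named male hyperoxic fibroblasts, with 55 cells of the male, had a family sum of 135 CPM per kb, of which Loxl1 made up 78.4% and Lox 15.2%.

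In all cells, Loxl2 was at 70.2 and 118 CPM in normal air and at 36.8 and 39.1 CPM in hyperoxia. The groups did not overlap, and the log2 change of -1.32 (SE 0.331, unadjusted p = 0.00248) did not pass with adjusted p = 0.158 by edgeR, which called 0 of 5 members and 0.243% of genes, while DESeq2 called 1 member. Myofibroblasts, a Loxl2-rich subtype, numbered 155 and 184 in normal air and 58 and 45 in hyperoxia. Within myofibroblasts Loxl2 was 114 and 182 CPM in normal air and 86.8 and 135 CPM in hyperoxia, and the groups overlapped.

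**Figure D5:**
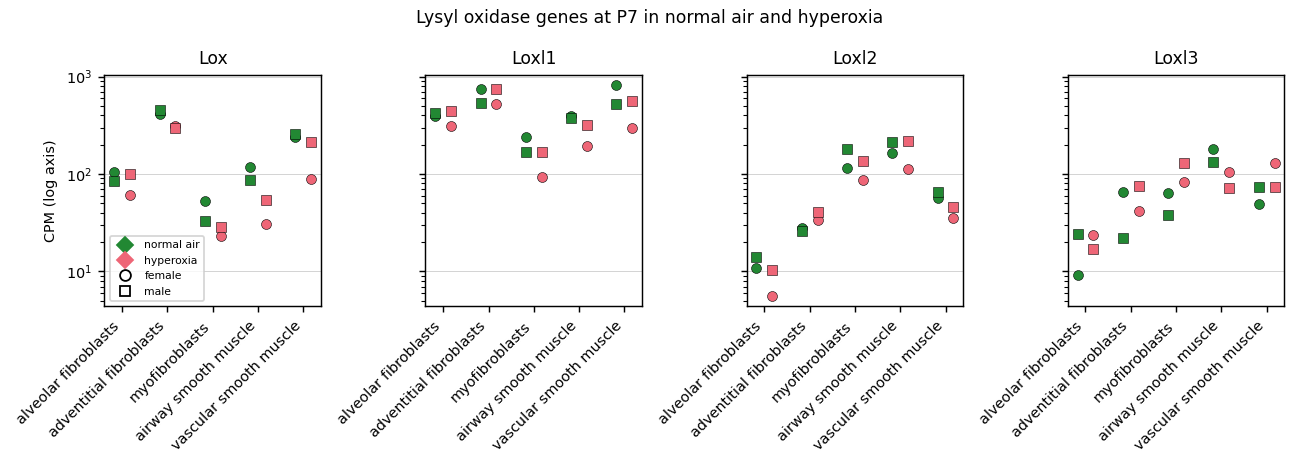
Levels of Lox, Loxl1, Loxl2 and Loxl3 in CPM on a log axis at P7 in normal air and in hyperoxia, by class, with 1 point per mouse. In adventitial fibroblasts, Lox lies at 308 and 300.1 CPM in hyperoxia, below 409 and 455 CPM in normal air, and in alveolar fibroblasts the Lox values of the 2 groups overlap.

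The partners of the family were followed as lists in the sum over all cells, where 1.23% of 17283 genes were called from E18.5 to P1. That sum moves with the mix of cells as well as with the RNA per cell. Adventitial fibroblasts deep enough for thinning, for example, numbered 26 and 29 at E18.5 and 134 and 62 at P1. The part of the cell mix in the list results in all cells was not tested. From E18.5 to P1, 2 of 17 elastic fibre genes rose, Mfap5 by 4.53 and Fbln2 by 2.06 on the log2 scale, and none fell, with a list median of 0.21 against -0.01 over all genes. Eln had a log2 change of -0.51 (adjusted p = 0.562) and Col1a1, a chain of the main fibrillar collagen, 0.95 (adjusted p = 0.262). None of 11 fibril-forming collagens passed (median 0.79), nor did any of 11 genes of lysine and proline hydroxylation (median -0.01) or 9 of copper supply (median 0.22). Of 10 genes that activate lysyl oxidases or hold them on fibres, 3 rose: Tnxb by 4.02, Postn, a matrix protein that binds Bmp1, by 2.31, and Pcolce2, an enhancer of procollagen cleavage, by 2.22. Lox is also known as a target of the hypoxia factor HIF, and of 12 HIF response genes 1 fell, Bnip3, which dropped by 1.68, while 2 had values above 0 (median -0.65). Of 10 TGF-beta response genes 1 rose, Tagln by 1.65.

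From P7 to P21, 5 of 17 elastic fibre genes rose and 2 fell in all cells, with Efemp1 at 4.55, Fbln2 at 2.02, Ltbp4 at 1.97 and Fbn2 at -4.16 on the log2 scale. Of the collagens 3 of 11 rose, Col5a3 by 4.45, Col3a1 by 1.49 and Col1a1 by 1.19 (adjusted p = 0.0496), and Col27a1 fell by 1.65. Of the 9 copper genes, 4 rose and 1 fell: Mt2 rose by 6.78 and Mt1 by 5.57, both metallothioneins that bind copper and zinc, Atp7a, which loads copper onto secreted enzymes, by 1.89, Slc31a2 by 1.27, while Commd1, named beyond the rule after its value was seen, fell by 1.15. Of the activation genes 4 of 10 rose, Tnxb by 2.67, Pcolce2 by 2.65, Pcolce by 1.37 and Adamts2 by 1.24. Medians were 0.44, 0.74, 0.07 and 1.24 for these 4 lists against 0.03 over all genes, and 9.97% of all genes were called. Of 11 hydroxylation genes 1 rose, P4ha1 by 1.12, and P4ha3 fell by 2.61. Of 12 HIF genes 3 rose, among them Adm by 2.51 and Slc2a1 by 1.90, and 2 fell, Ankrd37 by 3.27 and Egln3 by 2.89. Of 10 TGF-beta genes 1 rose, Thbs1 by 1.22, and Tgfbi and Acta2 fell by 2.73 and 1.68. Myofibroblasts, which had 4900 and 3263 CPM of Tgfbi at P7, were absent at P21, and the part of this in the result was not tested. In airway smooth muscle, where 1.13% of 13496 genes were called from P7 to P21, 4 of 17 elastic fibre genes fell and 1 rose, with Fbn2 at -9.38, Ltbp2 at -3.74, Mfap4 at -3.49 and Mfap2 at -2.58, and a median of -1.10 against -0.09 over all genes. In hyperoxia, no gene of any of these lists was called in any class, as were 0% of all genes. The elastic fibre median was -0.53 in adventitial fibroblasts and -0.89 in myofibroblasts, against 0.12 and -0.01 over all genes and -0.21 and -0.17 over genes of at least 100 CPM. HIF genes had a median of -0.02 in alveolar fibroblasts and 0.84 in myofibroblasts, against 0.06 and -0.01 over all genes. Whether the HIF list differed from other genes was not tested, and run and hyperoxia cannot be told apart.

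Across the 64 libraries of 15 subtypes, Lox levels ran most like those of 2310022B05Rik (Pearson r = 0.779), Eln (0.770), Mfap4 (0.769) and Lrrc17 (0.767), among 9440 genes with a mean of at least 10 CPM and on the scale of log2(CPM + 1). Loxl1 ran most like Ltbp1 (0.877), Fgfr1 (0.833), Mgp (0.815), Eln (0.810) and Dpysl3 (0.806). Eln was among the genes named for both, and r between Lox and Loxl1 was 0.670. Loxl2 ran most like Itga9 (0.773), Foxp1 (0.740), Syt11 (0.737), Pxdn (0.737) and Pik3ip1 (0.725), and Loxl3 like Foxf1 (0.816), Eng (0.812), Elk3 (0.764), Plat (0.760) and Phldb1 (0.760). For Loxl4 the nearest was Zfp423 at 0.687. Loxl2 and Loxl3 had r of 0.127 and -0.136 with Eln. These correlations describe libraries that share mice and differ in depth, so they have no p-value.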

How the data were processed

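The authors deposited raw read counts per gene and cell, whole numbers with no normalization, made with STAR 2.5.2b and HTSeq 0.10 per the submitters' processing notes. Those notes name the human build GRCh38 for these mouse cells, so the build is not settled and no coordinates are given. No molecular identifiers are named, so counts are of reads, and limits from 3 reads cover counting error only. Subtypes are the authors' labels, and 0 cell names were repeated. No doublet caller was run, and doublet removal is not described in the sources used here. Exon lengths are unions of exons in GENCODE M21, in which 99.8% of symbols were found.

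Counts were summed per mouse and class, with early and later names joined and at least 10 cells, then fitted in edgeR 4.0.16 under R 4.3.3 (TMM and filterByExpr, terms for group and sex, two-sided quasi-likelihood test, threshold of 0.05 after Benjamini-Hochberg adjustment over all genes). All groups with enough cells entered each such fit. Class differences were interactions with the mouse as a block, fitted on the 4 mice compared. Alternatives were DESeq2 1.42.0, limma 3.58.1, other size factors, no low-count filter, other minimum cell numbers, other sets of mice and cells, and each mouse left out. The replicate label is the sex of the mouse. The members, lists and tests were chosen with earlier results of these data known. Changes of a member are given where the unadjusted p was under 0.05, and at most 4 genes of a list, by largest change among those called, beside Eln and Col1a1. For likeness of patterns up to 5 genes with the highest r are named, and 1 of them is not reported here. The calculation was tested on simulated data of alveolar fibroblasts only, with changes put into genes of many reads. Changes in genes of few reads, in other classes, in sums over all cells and in interactions were not simulated.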

Additional observations from a re-analysis of the deposited data

Results flagged for a closer look

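In pericytes the change of Loxl1 differed from that in alveolar fibroblasts in the interaction test (edgeR quasi-likelihood, Benjamini-Hochberg), by -14.07 on the log2 scale from P1 to P7 (adjusted p = 2.71e-06) and by 9.45 from P7 to P21 (adjusted p = 0.00156). Both values are fitted against 0 reads in both mice at P7 and depend on the prior count, so they are no sizes. The Loxl1 reads of pericytes came from 2 and 1 cells at P1 and from 2 and 1 cells at P21.

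In 3 cases the female and the male moved in opposite directions between 2 ages by at least 2-fold each, on the log2(CPM + 1) scale, and whether the sexes differ was not tested. For Loxl2 in alveolar fibroblasts from E18.5 to P1, the female log2 ratio minus the male one was -5.30, and 93.0% of the female reads at E18.5 came from 1 of 14 cells. For Loxl4 in adventitial fibroblasts over the same step it was -4.03, and all female reads at E18.5 came from 1 of 26 cells. For Loxl3 in alveolar fibroblasts from P7 to P21 it was 3.76, with 26.5 and 3.97 CPM at P21.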

How the results depend on the processing

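No result reversed its direction under any alternative: of 506 log2 changes recomputed for 39 results, 451 kept their side of the threshold, 39 lost a call and 16 gained one. The 39 results were chosen for an unadjusted p under 0.05 in the main edgeR fit, so a kept direction is a weak check. Most of them were not called in that fit and could not lose a call. All 39 losses therefore fall on the few results that were called. The fitted log2 change from E18.5 to P1 in all cells ran from -2.10 to -1.70 for Lox and from 1.68 to 1.90 for Loxl1, each past the threshold in 14 of 18 alternatives (highest adjusted p 0.159 and 0.174). In alveolar fibroblasts it ran from -2.34 to -2.03 and from 1.67 to 2.21, past it in 9 of 18 (highest adjusted p 0.572 for both), and for adventitial Lox from -1.97 to -1.75, past it in 7 of 18 (adjusted p of 2.78e-07 to 0.345). Loxl2 in all cells from P7 to P21 ran from -1.76 to -0.99, past it in 16 of 18 (highest adjusted p 0.263).

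DESeq2 called 3 members from E18.5 to P1 in each of alveolar fibroblasts and all cells, against 2 by edgeR, 2 members in alveolar fibroblasts from P7 to P21, and 1 in each of pericytes from P1 to P7 and P7 to P21, airway and vascular smooth muscle from P7 to P21, myofibroblasts in hyperoxia, and all cells from P1 to P7 and in hyperoxia. Among class differences from P7 to P21 it called 2 for pericytes, 1 for airway and 3 for vascular smooth muscle. The cause was not tested. With at least 20 cells, which removes the E18.5 female, 4 members were called in alveolar fibroblasts from E18.5 to P1. With only the 4 mice compared, 0 were called there and 0 in adventitial fibroblasts. With 1 mouse left out, the members called from E18.5 to P1 ran from 0 to 4 in alveolar fibroblasts, from 0 to 0 in adventitial fibroblasts and from 0 to 2 in all cells, and from 0 to 1 in all cells from P7 to P21. Where that leaves 1 mouse in a group, it is assumed to vary like the others.

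The replicate label pairs mice by sex only. Without the term for sex as a block no call changed: Lox in all cells had -1.85 (adjusted p = 0.00698 by edgeR). Levels taken as the mean CPM over cells stayed within 1 SD in 141 of 175 cases, and detection without thinning moved in 79 of 175. Cell number limits pericyte Loxl1, with reads from 1 or 2 cells.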
